A study of Mus musculus with 5 samples.

Results

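Among the non-parenchymal cells of mouse liver, 163 cells carried the matrix gene Dcn together with Dpt, Mfap4 or Eln, out of 17188 cells that passed quality filters and 19815 cells in all. A cell was admitted when it held at least 3 molecules of Dcn, at least 3 of Dpt, Mfap4 and Eln together, fewer than 10 of the endothelial genes Stab2 and Clec4g, and fewer than 10 of the Kupffer cell genes Clec4f, Cd5l and Vsig4. Passing cells had at least 500 molecules, at least 200 genes and at most 25% mitochondrial molecules. The tissue came from wild-type male mice that were 9 weeks old at surgery, after partial inferior vena cava ligation (pIVCL, 3 libraries) or sham surgery (2 libraries), taken 2 weeks later. The strain is not given in the sources used here. Each library is labelled as coming from a mouse, without an animal number, so the p-values below measure the spread between libraries.

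Narrowing the vena cava above the liver raises pressure in the hepatic veins and is used as a model of liver congestion. Liver fibroblasts sit in the sheath of portal tracts, around vessels and in the capsule, where they lay down collagen fibres and elastic fibres. Elastic fibres have a core of elastin (Eln) on a scaffold of fibrillins, to which microfibril proteins such as Mfap4 attach, and dermatopontin (Dpt) binds decorin (Dcn) and helps to space collagen fibrils. Stellate cells, the other collagen-producing cells of the liver, lie along the sinusoids and store retinoids.

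In the order pIVCL 1, 2 and 3 and sham 1 and 2, the rule admitted 36, 20 and 35 pIVCL cells and 28 and 44 sham cells. Their summed molecules came to between 145030 and 322864 per library, against 193246 to 1290444 for the 754 stellate cells, which were gated by Dcn with Lrat, Reln, Colec11 and Ecm1. Median depth was 6200.5, 6037.5 and 8175 molecules in the admitted pIVCL cells and 6737.5 and 7137 in the admitted sham cells. All sham libraries and pIVCL 1 belong to the batch labelled 2021.3, and pIVCL 2 and pIVCL 3 to the batch 2021.7. Pairs of libraries shared between 8 and 30 cell barcodes, and no admitted cell was among them. The 3% of cells with the highest doublet scores in each library held 0 or 1 of its admitted cells.

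The admitted cells did not form a uniform class. Of the 163 cells, 75 held molecules of all 3 gate genes, 20 held Dpt and Mfap4 without Eln, 13 held Dpt and Eln, 7 held Mfap4 and Eln, 5 held Dpt alone and 1 held Mfap4 alone. The other 42 were admitted by elastin alone. Eln ranged widely between cells, with a median of 4 molecules and a highest value of 747, whereas Dpt had a median of 6 and a highest value of 41 and Mfap4 a median of 3 and a highest value of 70. At the edge of the rule, 11 admitted cells held exactly 3 molecules of the gate genes, and 28 cells with exactly 2 stayed outside. These values chose the cells and are given as a description. Dpt was found in 69.3%, Mfap4 in 63.2% and Eln in 84.0% of the admitted cells, at a median depth of 6984 molecules. Among 8317 endothelial cells, which should lack these genes, at a median depth of 4925 molecules, the shares were 0.192%, 0.132% and 1.32%.

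Mesothelial cells, which cover the surface of the liver, are marked by mesothelin (Msln), the uroplakins Upk3b and Upk1b and Lrrn4. At least 2 molecules of these genes were found in 38 of the 163 admitted cells (23.3%, exact 95% interval 17.1 to 30.6%), in 5, 5 and 15 pIVCL cells and in 8 and 5 sham cells. The interval pools the libraries and covers counting error only, while the share ran from 11.4% in sham 2 to 42.9% in pIVCL 3. Of these 38 cells, 36 held neither Dpt nor Mfap4 and so had been admitted by elastin. They carried Upk3b in 97.4% and Gpm6a in 94.7% of cells, and also the complement gene C3 in 97.4%, against 32.8% of the other admitted cells. A single molecule of Msln, Upk3b, Upk1b and Lrrn4 together was found in 2 further admitted cells. For the 38 cells the values go against a fibroblast label. The other 125 cells held Dpt or Mfap4 in 119 cases, and all 125 held Col1a1, the main chain of type I collagen. They were not free of every gene on the mesothelial list. Wt1, which was not counted for this choice, was at least 2-fold higher in them than in stellate cells in every library, at a median fold of 15.2. The threshold of 2 molecules was chosen after these values were seen.

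**Figure D1:**
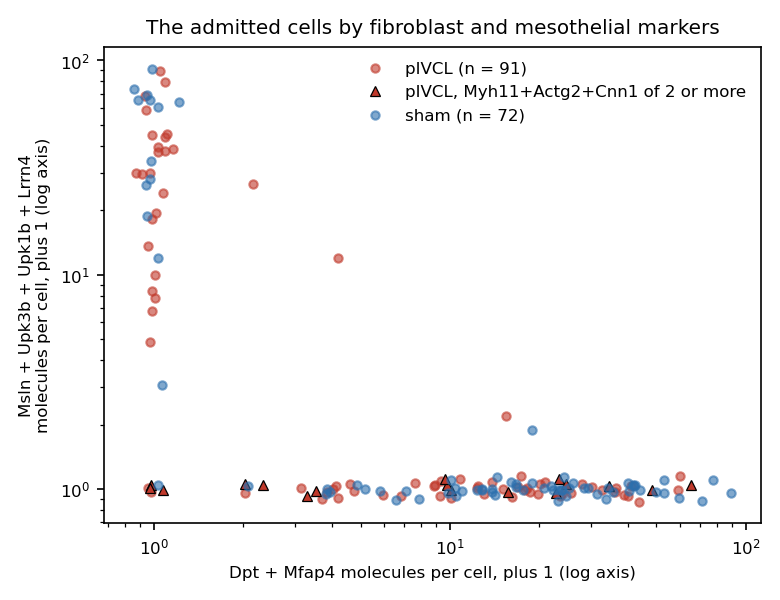
Each point is 1 of the 163 admitted cells, placed by its molecules of Dpt and Mfap4 (horizontal) and of the mesothelial genes Msln, Upk3b, Upk1b and Lrrn4 (vertical), with 1 added, on log axes and with a small random shift so that points do not hide each other. Red points are pIVCL cells and blue points sham cells, and triangles mark cells with at least 2 molecules of Myh11, Actg2 and Cnn1. Of the 38 cells with at least 2 mesothelial molecules, 36 stand along the left edge, where Dpt and Mfap4 are absent, and all triangles are pIVCL cells.

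A further 17 admitted cells had at least 2 molecules of Myh11, Actg2 and Cnn1, the contractile genes of smooth muscle. All 17 came from pIVCL livers, 8 of 31, 6 of 15 and 3 of 20 of the cells without mesothelial markers, against 0 of 20 and 0 of 39 in sham livers. None in the 59 sham cells allows a share of up to 5.08%, on counting error alone. Such cells were not absent from sham livers, since the stellate gate held 25 of 275, 27 of 274 and 19 of 102 in pIVCL and 4 of 69 and 1 of 34 in sham. At least 1 molecule of Dpt or Mfap4 was present in 14 of the 17. Some of these still needed elastin for admission, such as a pIVCL 2 cell with 1 molecule of Dpt and Mfap4 together and 366 of Eln. These cells were rich in matrix transcripts, with 12447 counts per 1000000 molecules (CPM) of Eln and 32185 of Col1a1 over the class, against 1139 and 1574 CPM in the mesothelial-marker cells. Smooth muscle actin Acta2 reached 3664 CPM and was found in 82.4% of the 17 cells, against 17.2% of stellate cells. They were also deep, with a median of 11155 molecules, and Alb, a hepatocyte transcript, was found in all of them. Both marker classes were chosen after values were seen, and no test was made between them.

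**Figure D2:**
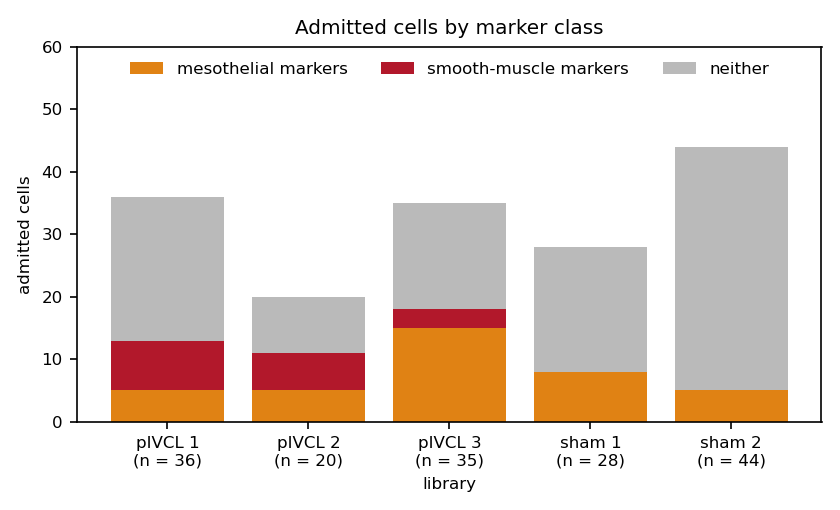
Stacked bars give the number of admitted cells per library, split into cells with mesothelial markers (orange), cells with smooth-muscle markers (dark red) and cells with neither (grey). Smooth-muscle markers appear in 8, 6 and 3 cells of the pIVCL libraries and in 0 cells of the sham libraries.

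Markers of adventitial fibroblasts, the matrix cells of vessel sheaths, were present in only some of the 125 cells without mesothelial markers. Cd34 was found in 54.4% of them and Col15a1, a basement membrane collagen of portal fibroblasts, in 53.6%. Clec3b was found in 12.8%, Mfap5 in 9.60% and Pi16, which marks an adventitial progenitor-like fibroblast in several tissues, in 6.40%. In stellate cells the same genes were found in 3.58%, 0.265%, 1.33%, 0.928% and 0.133% of cells. Stellate markers were not absent from the fibroblasts. Lrat, which esterifies retinol, was found in 49.6% of the 125 cells against 92.0% of stellate cells, and Rgs5 in 13.6% against 85.7%. A total of 111 of the 125 cells held 3 or more molecules of Lrat, Reln, Colec11 and Ecm1. Ecm1 was found in 91.2% of the 125 cells and also in 24.7% of endothelial cells.

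Against stellate cells, the admitted cells were set apart by fibrillar collagen, cross-linking enzymes and proteases. Sums per library were scaled to CPM, and a gene was counted as higher or lower when it differed at least 2-fold in the same direction in all 5 libraries after adding 10 CPM to both classes. By this rule 116 of 7463 genes (1.55%) were higher and 143 (1.92%) lower. With the mesothelial-marker cells left out of both classes, 184 of 7332 (2.51%) were higher and 163 (2.22%) lower, and 108 of the higher and 116 of the lower genes were shared between the descriptions. Because the cells were chosen by genes of this contrast, no test was made.

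Of the collagen genes, 11 of 20 were higher and 1 lower, with a median fold of 4.55 against a median of 1.00 over all genes. Col1a1 reached 21885, 14928 and 11349.5 CPM in the admitted pIVCL cells and 11729.6 and 16449.7 in the admitted sham cells, against 538, 580 and 976 in pIVCL stellate cells and 523 and 704 in sham stellate cells. The classes did not come near each other in any library, and the lowest fold was 11.5. Col12a1, a fibril-associated collagen, averaged 109.8 ± 48.3 CPM in the admitted cells and 0.878 ± 1.57 in stellate cells (SD, n = 5 libraries), and Col15a1 averaged 323 ± 62.9 and 7.24 ± 16.2. Type VI collagen, a microfibrillar collagen, was represented by Col6a1, Col6a2, Col6a3 and Col6a5 among the higher genes. Col14a1, another fibril-associated collagen, ran the other way, at 1979 ± 1015 CPM in the admitted cells and 6825 ± 3547 in stellate cells.

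The elastic fibre list had 6 of 20 genes higher and none lower, with a median fold of 2.19. Lysyl oxidase (Lox), which cross-links collagen and elastin, averaged 539 ± 67.1 CPM in the admitted cells against 48.7 ± 29.4 in stellate cells. Its relative Loxl1, the fibrillin Fbn2, the fibulin Fbln2, the microfibril protein Mfap2 and Ltbp2 were the others. Without mesothelial-marker cells, Ltbp2, a fibrillin-binding protein, showed a wider gap, with 468 ± 43.6 CPM in the admitted cells and 4.55 ± 3.07 in stellate cells. Mgp, the matrix Gla protein that inhibits calcification of elastic tissue, then averaged 486 ± 257 and 1.24 ± 1.58, and the proteoglycan Fmod, which guides collagen fibril assembly, 651 ± 384 and 1.78 ± 1.85. Their levels in stellate sums were higher when mesothelial-marker cells stayed in, since that gate held 26 such cells, among them 26.5% of the stellate gate in sham 2.

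Proteases and their inhibitors were also prominent, with 8 of 21 genes higher and 1 lower. Serpine2, an inhibitor of thrombin and plasminogen activators, averaged 425 ± 80.4 CPM in the admitted cells and 26.7 ± 11.6 in stellate cells. Plat, the tissue plasminogen activator, averaged 190.1 ± 70.3 and 16.4 ± 14.5. Among adventitial genes 5 of 19 were higher, led by gelsolin (Gsn), an actin-severing protein, at 832 ± 258 and 72.8 ± 39.7, and by Clec3b, which binds plasminogen, at 228 ± 106 and 8.98 ± 9.96. The transcription factor Prrx1, used as a marker of mesenchymal lineages, averaged 172 ± 74.0 and 8.55 ± 3.00. Igf1, a growth factor, averaged 333 ± 113 and 36.2 ± 24.1. Dpep1, Lgi2, Gpx3, Emp1, Fxyd6 and Clmp completed the 15 genes with the largest lowest fold, and their lowest folds lay between 5.10 and 8.98.

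The lower genes included markers of stellate cells. Hhip, a decoy receptor for hedgehog ligands, averaged 5.89 ± 6.67 CPM in the admitted cells and 435 ± 82.0 in stellate cells. The collectin Colec10 averaged 64.1 ± 44.3 and 2333 ± 826, and the laminin chain Lama1 6.43 ± 7.33 and 308 ± 115. Calcrl, the receptor of adrenomedullin and CGRP, averaged 27.2 ± 11.6 and 566 ± 90.3. Rgs4, Mapt, Fcna, Tlcd4, Plvap and Agtr1a were the remaining genes of this group by the naming rule. Among stellate markers outside the gate, Angptl6, Hgf, Ngfr, Rgs5 and Vipr1 were lower in every library. The antigen presentation genes H2-K1 and H2-D1 were lower too, among 4 of 18 acute-phase and interferon genes that were lower, with 1 higher. Tgfbi, a matrix protein induced by TGF-beta, averaged 253 ± 57.7 CPM in the admitted cells and 1908 ± 480 in stellate cells.

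**Figure D3:**
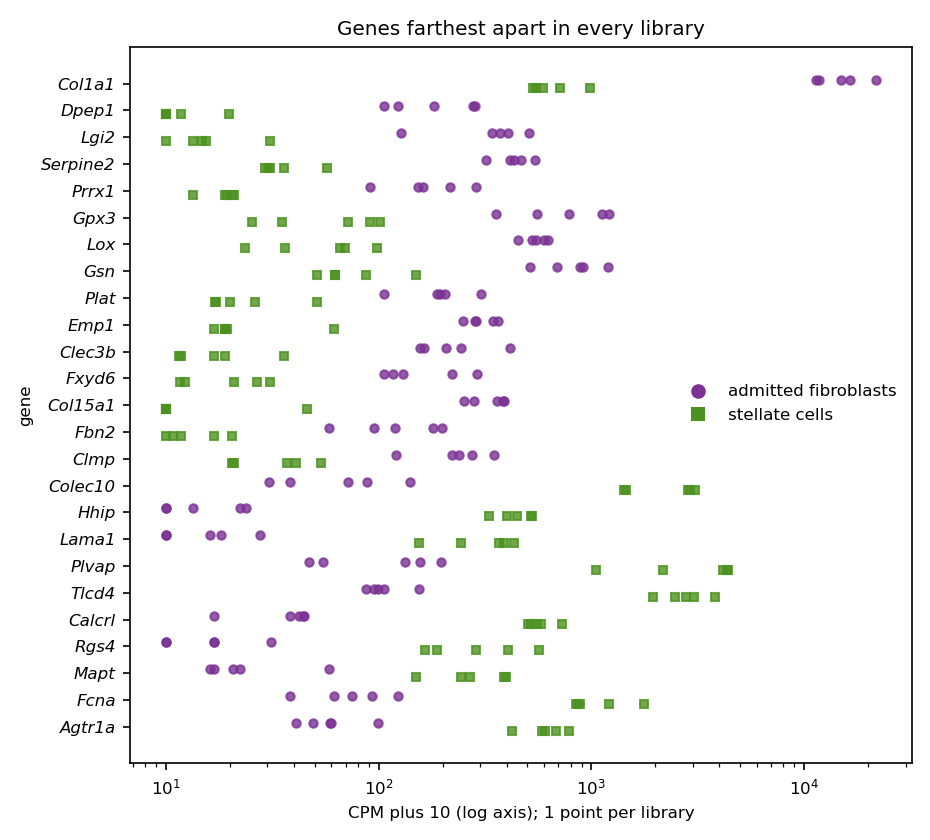
CPM plus 10, on a log axis, in the admitted cells (purple circles) and in stellate cells (green squares), with 1 point per library, for the 15 genes with the largest lowest fold over 5 libraries and the 10 genes that were likewise lower. No gene shown has overlapping classes, and Col1a1 stands highest in the admitted cells, at a mean of 15268 CPM against 664 in stellate cells.

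The share of admitted cells did not separate the surgery groups. It was 1.38%, 0.574% and 1.24% of passing cells in pIVCL livers and 0.630% and 1.15% in sham livers, and the exact binomial intervals of pIVCL 2 (0.351 to 0.885%) and sham 1 (0.419 to 0.910%) were nearly the same. The means were 1.06 ± 0.431% in pIVCL and 0.890 ± 0.366% in sham (SD, n = 3 and 2), a difference of 0.175 percentage points with a two-sided exact permutation p of 0.6, where 0.2 is the smallest that 3 against 2 libraries allow. The sign depends on how cells are counted, since it was -0.0371 percentage points with elastin not counted and -0.0837 without sham 1. Relative to stellate cells the admitted cells were fewer in pIVCL, at 0.131, 0.0730 and 0.343 per stellate cell against 0.406 and 1.29 in sham. The groups did not overlap in this ratio, whose exact permutation p is 0.2. The stellate gate held 275, 274 and 102 cells in pIVCL and 69 and 34 in sham, so this ratio moves with the stellate cells. Depth of passing cells differed as well, with medians of 4276, 4393 and 2966 molecules in pIVCL and 5458 and 5162 in sham, and its part in these shares was examined by thinning cells to 2000 molecules. Shallower cells drop out of that count, leaving 2486, 3328 and 1815 passing cells in pIVCL and all 4441 and 3831 in sham. The difference was then 0.0389 percentage points (exact permutation p = 0.8).

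**Figure D4:**
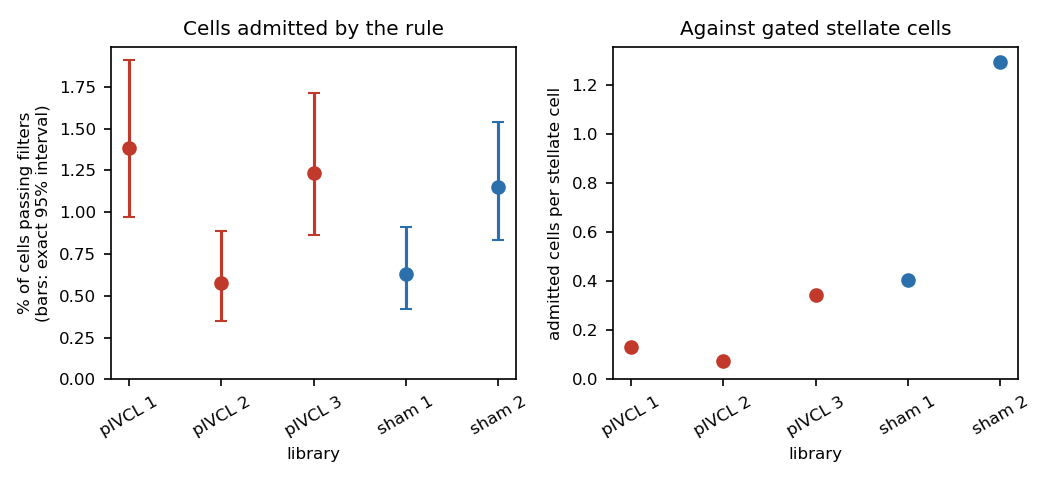
Left, admitted cells as a percentage of passing cells in each library, with exact 95% binomial intervals that cover counting error only. Right, admitted cells per gated stellate cell. In the left panel the pIVCL libraries (red) span 0.574 to 1.38% and the sham libraries (blue) 0.630 to 1.15%, and in the right panel sham 2 stands highest at 1.29.

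No gene passed the test between pIVCL and sham over all admitted cells. In edgeR's quasi-likelihood test on sums per library, 0 of 5469 genes had an adjusted p under 0.05 (0% of genes, Benjamini-Hochberg), 404 (7.39%) had an unadjusted p under 0.05, and DESeq2's Wald test called 27 genes, 21 higher and 6 lower. Levels below are CPM of the tested genes after TMM scaling. In 639 genes (11.7%) the pIVCL libraries all stood above the sham libraries, and in 634 (11.6%) all below. The result depended on which cells were admitted. With the 38 mesothelial-marker cells left out, a choice made after the data were seen, 18 of 3461 genes (0.52%) rose and 10 (0.289%) fell, 0.809% in all, and 9.74% had an unadjusted p under 0.05. With the 17 smooth-muscle-marker cells left out as well, 1 of 3288 genes passed, the fall of Rgs1, a regulator of G protein signalling of leukocytes. The second count changed with a batch term and with single libraries left out. The later batch holds pIVCL libraries only, so with a batch term the surgery effect rests on pIVCL 1 against the sham libraries. A batch effect and this smaller comparison cannot be told apart as reasons for a lost call. With batch as a covariate 7 genes rose (Alb, Cav1, Ccn5, Fhl1, Fn1, Notch3 and S100a4) and 0 fell, so that none of the 10 falls and none of the other rises described below kept its call. The count was 2 higher and 8 lower without sham 2, 6 and 4 without pIVCL 2, and 8 and 5 without sham 1, and over all admitted cells up to 14 higher and 5 lower genes were called when 1 library was left out.

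Contractile and myofibroblast genes leaned towards pIVCL. Of the 20 tested, 18 had a positive fold change, 7 stood higher in every pIVCL library and none lower, with a median log2 fold change of 0.91. Over all genes 2823 of 5469 were positive, 11.7% stood higher and 11.6% lower in every pIVCL library, and the median was 0.02. None passed over all admitted cells. Myh11, the smooth muscle myosin heavy chain, had 231, 222 and 33.2 CPM in pIVCL and 4.34 and 6.74 in sham. Every pIVCL library stood above the sham libraries, and pIVCL 3 was closest to them. The adjusted p of edgeR was 0.191 over all admitted cells and 0.0206 without the mesothelial-marker cells, at log2 fold changes of 4.67 ± 1.03 and 4.69 ± 0.82 (SE). Actg2, an enteric-type smooth muscle actin, was the other contractile gene that rose in the second fit. Acta2 had 2013, 1784 and 232 CPM in pIVCL against 321 and 50.5 in sham, so that pIVCL 3 lay between the sham libraries, and its adjusted p was 0.669 by edgeR.

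A Notch receptor and a Notch target gene were among the genes of lowest p. Notch3, the Notch receptor of vascular smooth muscle and pericytes, had 235, 321 and 122 CPM in pIVCL and 21.7 and 16.8 in sham. Its log2 fold change was 3.49 ± 0.52 with an edgeR adjusted p of 0.0602 over all admitted cells, the lowest there together with that of Rgs1. Without the mesothelial-marker cells it rose by 3.60 ± 0.48 (adjusted p = 0.00376). Heyl, a transcription factor that Notch receptors induce, had 101, 148 and 70.1 CPM in pIVCL and 13.0 and 20.2 in sham. It rose by 2.70 ± 0.51 in the fit without the mesothelial-marker cells (edgeR adjusted p = 0.0279), and its adjusted p was 0.124 over all admitted cells.

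Matricellular and adhesive genes were split, with 10 of 19 positive over all admitted cells, 4 higher and 4 lower in every pIVCL library and a median of 0.12. Fn1, the adhesive glycoprotein fibronectin, had 2419, 1916 and 756 CPM in pIVCL and 312 and 445 in sham, a log2 fold change of 2.16 ± 0.48 with an edgeR adjusted p of 0.152 over all admitted cells and 0.0186 without the mesothelial-marker cells. Thrombospondin 1 (Thbs1), which can activate latent TGF-beta, had 589, 633 and 262 CPM against 86.8 and 152, with adjusted p of 0.124 and 0.0459 in the same fits by edgeR. Ccn5, a matricellular protein of smooth muscle, had 779, 271 and 125 CPM in pIVCL against 0 and 6.74 in sham. S100a4, a calcium-binding protein often used as a fibroblast marker, had 313, 312 and 77.5 CPM against 8.68 and 3.37. Both rested on a handful of sham molecules, so their fitted fold changes carry little precision, and both passed without the mesothelial-marker cells, at edgeR adjusted p of 0.00376 and 0.0038. Of 19 matricellular genes tested in that fit 3 rose and none fell, where 0.52% of all genes rose. The list as a whole was balanced there too, with 10 positive, 5 higher and 5 lower without overlap and a median of 0.02. Thy1, a surface protein of portal fibroblasts, had 212, 263 and 221 CPM in pIVCL and 95.4 and 43.8 in sham and passed in neither fit (edgeR adjusted p of 0.124 and 0.0583).

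Most molecules of several genes that were higher in pIVCL lay in the 17 smooth-muscle-marker cells. These cells held 41.9% of all molecules of the pIVCL cells without mesothelial markers. They held 83.0% of the Notch3 molecules, 87.5% of Heyl, 83.2% of Fn1, 95.7% of Ccn5, 97.8% of S100a4 and 64.6% of Thbs1, but 25.2% of Nr4a1. The 99.0% for Myh11 and 100% for Actg2 follow from the choice of the cells. With those cells left out as well, the log2 fold change was 1.84 ± 0.88 for Notch3 and 0.47 ± 0.34 for Fn1, with an edgeR adjusted p of 0.919 for each. Thbs1 kept more of its difference, at 1.58 ± 0.59 (edgeR adjusted p = 0.822) against 2.04 ± 0.43 with those cells. Ccn5, S100a4, Heyl, Myh11 and Actg2 fell under the filter on low counts. Other matrix and fibroblast genes were divided. The 17 cells held 60.2% of Col1a1, 67.0% of Col3a1, 73.1% of Col15a1, 75.3% of Lox, 81.4% of Thy1 and 87.1% of Postn molecules. They held 19.9% of Dpt, 29.3% of Mfap4, 8.30% of Lum, 4.82% of Cd34 and 0% of Clec3b, Mfap5 and Pi16 molecules.

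Among the 18 genes that rose without the mesothelial-marker cells was Fhl1, an LIM-domain protein of muscle, with 429, 445 and 181 CPM in pIVCL and 63.5 and 50.5 in sham (log2 fold change 2.63 ± 0.46, edgeR adjusted p = 0.0186). Over all admitted cells its adjusted p was 0.574. Promoters of many contractile genes hold a CArG box, the binding motif of serum response factor. The RefSeq promoter table (GRCm38.p6, from 250 bases before to 50 after the start) covered 8 of the 18 genes in 11 windows, and the box, searched on both strands, was found in 1 window, that of Fhl1, and in none of the 7 windows of 7 of the 10 genes that fell. It is present in 1.63% of the 32851 windows of the table. The window is shown because it is the one match, on the plus strand at chrX:56779433-56779732 of GRCm38.p6, with the box in capitals. The other Fhl1 window held none. A match describes letters and not binding.
Fhl1 promoter: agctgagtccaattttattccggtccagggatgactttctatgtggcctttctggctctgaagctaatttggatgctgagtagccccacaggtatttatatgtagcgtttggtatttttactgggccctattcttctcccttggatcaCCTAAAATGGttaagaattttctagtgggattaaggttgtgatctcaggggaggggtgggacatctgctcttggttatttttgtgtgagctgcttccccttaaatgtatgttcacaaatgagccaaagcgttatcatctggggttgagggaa

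Lower genes in pIVCL included leukocyte transcripts and immediate-early genes. Rgs1 had 11.2, 0 and 0 CPM in pIVCL and 147 and 111 in sham (edgeR adjusted p = 0.0602 over all admitted cells and 0.00376 without the mesothelial-marker cells). Lyz2, the lysozyme of macrophages, had 78.3, 32.9 and 77.5 CPM in pIVCL and 273 and 249 in sham, a log2 fold change of -1.96 ± 0.35 (edgeR adjusted p of 0.0988 and 0.0146 in the same fits). Ctss, a lysosomal protease of antigen-presenting cells, had 11.2, 8.22 and 25.8 CPM against 195 and 94.3, with adjusted p of 0.0988 and 0.0206. Kupffer cell genes moved with these, as the 8 genes of that list, of which 5 to 8 were detected per library, summed to 0.00856%, 0.00896% and 0.0178% of molecules in admitted pIVCL cells and 0.0334% and 0.0331% in admitted sham cells. The admission rule itself caps Clec4f, Cd5l and Vsig4, which are on that list. In gated stellate cells, under the same cap, the order was opposite, at 0.0189%, 0.0357% and 0.0248% in pIVCL and 0.00607% and 0.0171% in sham. The part of macrophage RNA in the falls of Lyz2, Ctss and Rgs1 was not tested.

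Fos and Fosb, transcription factors induced rapidly and briefly by many stimuli, fell in the fit without the mesothelial-marker cells. Fosb had 291, 132 and 144 CPM in pIVCL and 399 and 856 in sham over all admitted cells, with an edgeR adjusted p of 0.211 there and 0.0375 without the mesothelial-marker cells. Fos had 1271, 987 and 1527 CPM against 2308 and 2540.0, with adjusted p of 0.513 and 0.0338. The whole list did not move one way, since 11 of its 17 genes tested over all admitted cells had a positive fold change. In the fit without the mesothelial-marker cells 5 of 15 did, against 1782 of 3461 over all genes. There 2 fell, where 0.289% of all genes fell. Without overlap 5 of the 15 stood lower and 2 higher, where 13.5% and 13.4% of all genes did. Nr4a1, an immediate-early nuclear receptor, had 276, 354 and 542 CPM in pIVCL against 99.8 and 135 in sham and passed in neither fit (edgeR adjusted p of 0.124 and 0.293).

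Portal fibroblast genes were divided. Itgbl1, an integrin-like secreted protein, had 41.0, 41.1 and 36.9 CPM in pIVCL and 113 and 309.9 in sham, a log2 fold change of -2.42 ± 0.45 (edgeR adjusted p = 0.0999), and it fell without the mesothelial-marker cells (adjusted p = 0.024). Cdh11, a cadherin of mesenchymal cells, had 146, 76.2 and 110.0 CPM in that fit against 452 and 589.7 in sham and fell by 2.15 on the log2 scale (edgeR adjusted p = 0.00836). Over all admitted cells its groups overlapped (adjusted p = 0.789). Heyl, on the same list, was the member that rose. The 17 smooth-muscle-marker cells held 87.5% of its molecules in pIVCL cells without mesothelial markers. Of 10 portal genes tested without the mesothelial-marker cells 1 rose and 2 fell, where 0.52% of all genes rose and 0.289% fell. Col6a5, a type VI collagen chain, had 41.0, 32.9 and 18.4 CPM in pIVCL and 269 and 108 in sham, with edgeR adjusted p of 0.102 and 0.0459. Saa3, an acute-phase protein, had 14.9, 90.4 and 159 CPM against 260.3 and 1869.6. It passed without the mesothelial-marker cells (edgeR adjusted p = 0.0186), at 4.42, 0 and 0 CPM in pIVCL against 395 and 2338 in sham.

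Col1a1, Col3a1 and Col14a1 passed in neither fit. Col1a1 had 23812, 17802 and 11765 CPM in pIVCL and 12502 and 17891 in sham, a log2 fold change of 0.23 ± 0.40 (edgeR adjusted p = 0.956). Its groups overlapped, as did those of Col3a1 (0.23 ± 0.39, adjusted p = 0.951). Without the mesothelial-marker cells Col1a1 had 28162, 26837 and 22732 CPM in pIVCL against 20130 and 21787 in sham (edgeR adjusted p = 0.857). Its groups then did not overlap, a position above sham held by 13.4% of genes in that fit, and those of Col3a1 still did. Of 19 collagen genes tested over all admitted cells 11 had a positive fold change, 4 stood higher in every pIVCL library and 3 lower, with a median of 0.23. Col14a1 was among the higher, with 2814, 4144 and 1483 CPM in pIVCL against 1310.1 and 1277 in sham (edgeR adjusted p = 0.583). Eln, Dpt and Mfap4 admitted the cells, so their levels are given without a test. Eln had 7731, 5402 and 1963 CPM in pIVCL and 2976 and 3143 in sham, and the lowest library was a pIVCL one. In pIVCL 88.7% of the Eln molecules outside mesothelial-marker cells lay in the 17 smooth-muscle-marker cells. Dpt had 1353, 699 and 646 CPM in pIVCL and 1197 and 1344 in sham, and Mfap4 1137, 329 and 479.6 CPM against 1119 and 1573. The 2 pIVCL libraries of the later batch were the low ones for both genes over all admitted cells. Without the mesothelial-marker cells every pIVCL library lay below sham for both, a position held by 13.5% of genes in that fit. Dpt then had 1606, 1080 and 1375 CPM in pIVCL against 1947 and 1681 in sham. Mfap4 had 1349, 508 and 990 CPM against 1820 and 1967. With the 17 smooth-muscle-marker cells left out too, the log2 fold change was 0.064 for Dpt and -0.73 for Mfap4. Of 21 elastic fibre genes tested, the gate genes Eln and Mfap4 among them, 13 had a positive fold change, with a median of 0.18, and none passed.

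**Figure D5:**
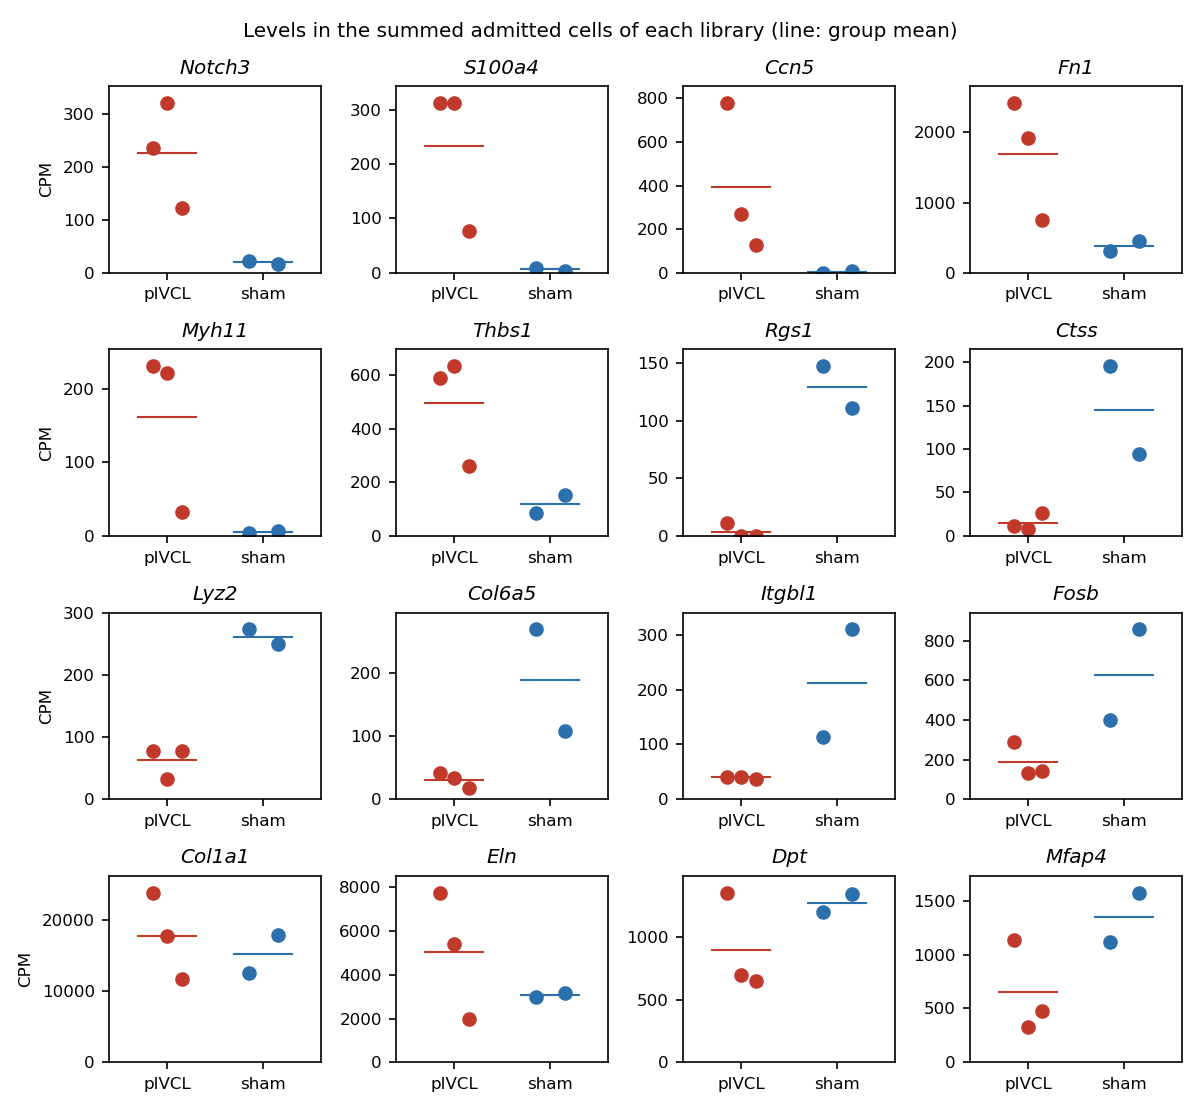
CPM in the summed admitted cells of each library for 16 genes, with pIVCL (red, 3 libraries) left of sham (blue, 2 libraries), group means as lines and a linear axis from 0 in every panel. In the first 6 panels all pIVCL libraries stand above sham, in the next 6 all stand below, and in the last 4, the structural genes Col1a1, Eln, Dpt and Mfap4, the groups overlap. The non-overlapping genes were picked from the named genes, and the naming rule favours genes without overlap. Over all genes 11.7% stood above and 11.6% below in this way, and 0 of 5469 passed in the fit shown.

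Other lists gave no call over all admitted cells. Hypoxia and glycolysis genes had a positive fold change in 12 of 14, with a median of 0.45 and 3 genes higher in every pIVCL library, a position held by 11.7% of all genes. Complement genes had 4 of 12 positive, proteases and their inhibitors 8 of 20, and TGF-beta, BMP and Wnt modulators 5 of 17. Of the adventitial genes 10 of 17 were positive and none stood higher in every pIVCL library. Ccn2, a TGF-beta and YAP target, had 2222, 2812 and 531 CPM in pIVCL and 681 and 1048 in sham, with overlapping groups (edgeR adjusted p = 0.779). Hepatocyte transcripts moved with the surgery, with all 10 genes of the list positive and sums of 0.148%, 0.330% and 0.247% of molecules in admitted pIVCL cells against 0.0716% and 0.0725% in sham. Alb, the leading one, had 563, 1628 and 572 CPM in pIVCL and 99.8 and 84.2 in sham (edgeR adjusted p = 0.0988, and 0.00376 without the mesothelial-marker cells). Smooth muscle genes summed to 0.391%, 0.361% and 0.0826% in pIVCL and 0.0859% and 0.0319% in sham. The hepatocyte sums stood higher in pIVCL in other classes too. They were 0.214%, 0.216% and 0.274% in pIVCL stellate cells against 0.192% and 0.0926% in sham stellate cells. In endothelial cells they were 0.0710%, 0.120% and 0.0831% in pIVCL against 0.0413% and 0.0178% in sham. The part of hepatocyte RNA in the other differences was not tested.

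Whether pIVCL acted differently on the admitted cells and on stellate cells was tested as the difference of the 2 effects, fitted together with a term for each library. No gene passed among 6542 (0% of genes), and 438 (6.70%) had an unadjusted p under 0.05. With mesothelial-marker cells left out of both classes 8 of 6014 (0.133%) had a larger effect in the admitted cells and 3 (0.0499%) a smaller one, 0.183% in all, and 5.85% had an unadjusted p under 0.05. Gpc3, with a smaller effect, had the lowest p (-4.81 ± 0.58, edgeR adjusted p = 0.000116). Its sham stellate sums held 61 and 168 molecules before the mesothelial-marker cells were left out, and 0 and 5 after. The larger effects included the hepatocyte gene Alb (edgeR adjusted p = 0.00592) and Kcnk3, with 0 molecules in the admitted cells of each sham library. Notch3 was also among the larger effects. It had 229, 308 and 118 CPM in admitted pIVCL cells and 21.2 and 16.3 in admitted sham cells, against 98.1, 168 and 176 CPM in pIVCL stellate cells and 225 and 72.2 in sham stellate cells. In stellate cells the groups overlapped. The interaction was 3.41 ± 0.68 on the log2 scale (edgeR adjusted p = 0.161), and 3.84 ± 0.55 without the mesothelial-marker cells (adjusted p = 0.00106). It was 1.52 with the smooth-muscle-marker cells left out too (adjusted p = 0.97) and 0.094 without the members that bear stellate markers (adjusted p = 1), both by edgeR.

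Galectin 1 (Lgals1), a lectin of mesenchymal cells, had 1144, 892 and 868 CPM in admitted pIVCL cells and 453 and 554 in admitted sham cells. In stellate cells the order was opposite, at 182, 136 and 201 CPM in pIVCL and 339 and 279 in sham, and the interaction was 1.79 ± 0.36 (edgeR adjusted p = 0.147). That opposite order depended on the mesothelial-marker cells of the sham stellate gate, since without them sham stellate cells had 219 and 122 CPM and the adjusted p was 0.793. Fbln5, a fibulin needed for elastic fibre assembly, had 561, 1066 and 298 CPM in admitted pIVCL cells and 809 and 527 in admitted sham cells. In stellate cells it had 774, 1084 and 860.3 CPM in pIVCL and 325 and 206 in sham, with no overlap. Its interaction was -1.99 ± 0.43 with an edgeR adjusted p of 0.196, and -1.97 ± 0.41 with an adjusted p of 0.0375 without the mesothelial-marker cells. The Kupffer cell gene C1qb also passed in that fit, at -3.41 ± 0.69 (edgeR adjusted p = 0.0342). S100a4 passed in that fit too (adjusted p = 0.00372), at 2.47, 4.60 and 2.24 CPM in pIVCL stellate cells and 0 and 64.8 in sham stellate cells, against 344, 408 and 122 CPM in admitted pIVCL cells and 13.0 and 3.86 in admitted sham cells. That fit was not repeated without sham 2. Over all admitted cells the S100a4 interaction was 6.61 ± 2.71 (edgeR adjusted p = 0.749), and -0.19 without sham 2.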

How the data were processed

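Liver non-parenchymal cells of 5 libraries were profiled with the BD Rhapsody whole-transcriptome assay. The authors deposited molecule counts, adjusted for identifier errors (RSEC) per the file headers and made with the BD WTA Rhapsody Analysis Pipeline 1.9.1 on GRCm39, per the submitters' processing notes. The aligner was not given in the sources used here. The files name genes by symbol without coordinates, so none are given. Members, gene lists, tests and named-gene rules were chosen with earlier results of these data known.

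Stellate cells had at least 3 molecules of Dcn and at least 3 of Lrat, Reln, Colec11 and Ecm1 together, fewer than 3 of Dpt, Mfap4 and Eln together, and the same limits on endothelial and Kupffer genes. Endothelial cells had at least 10 of Stab2 and Clec4g. Scrublet scores in scanpy 1.11.5 ranked doublets, which were removed only as an alternative. No correction for free RNA was made. Counts of admitted cells were summed per library and fitted with edgeR 4.0.16 (R 4.3.3; TMM, filterByExpr, robust quasi-likelihood, Benjamini-Hochberg over all genes tested, threshold 0.05), DESeq2 1.42.0 being an alternative. Code was tested on simulated counts. Estimates are ± SE and means ± SD. Against stellate cells, genes needed a mean of 20 CPM in 1 class. Named there were the 15 and 10 genes of most extreme fold in the worst library, with at least 100 CPM. Between surgeries the rule named up to 8 genes in each direction without overlap and with a mean log2 CPM of at least 6, filled by lowest p, up to 4 called genes per list and a fixed set of matrix genes, and 6 in each direction for the interaction. The rule was applied again to the fit without mesothelial-marker cells. That fit, Alb and the marker thresholds of 2 molecules were chosen after values were seen. Replicate numbers share no stated source between groups.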

Additional observations from a re-analysis of the deposited data

How the results depend on the processing

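The share difference kept its sign except with Eln not counted (-0.0371 percentage points), with mesothelial or smooth-muscle markers left out (-0.153) and without sham 1, the range over single libraries left out being -0.0837 to 0.434. Calls between pIVCL and sham over all admitted cells, 0 in both directions, became 53 higher and 29 lower in batch 2021.3 alone (1 pIVCL library, assumed to vary like the 2 sham libraries), 1 and 1 with a gate sum of 5, 5 and 2 with Eln not counted, 2 and 0 without the highest doublet scores, 18 and 10 without mesothelial markers, 0 and 1 without smooth-muscle markers too, 69 and 26 with no filter, 1 and 0 with batch as a covariate, and 21 and 6 with DESeq2. With 1 library left out they ranged over 0 to 14 higher and 0 to 5 lower. In the fit without mesothelial markers, 18 higher and 10 lower genes became 59 and 38 in batch 2021.3 alone, 76 and 37 with no filter, 7 and 0 with batch as a covariate, 28 higher with DESeq2, 0 and 1 without smooth-muscle markers, and 2 to 19 higher and 4 to 9 lower with 1 library left out. Interaction calls, 0 in both directions, became 3 higher with Eln not counted, 1 higher without members bearing stellate markers, 8 and 3 without mesothelial markers, 2 and 5 without smooth-muscle markers too, 98 and 41 with no filter, and 0 to 68 higher and 0 to 15 lower with 1 library left out. Against stellate cells, 116 higher and 143 lower genes became 41 and 224 without members bearing stellate markers, and 184 higher without mesothelial markers. The causes were not tested.

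No pairing of the samples by replicate number is stated. Same-numbered libraries had deviations from their group means correlated at -0.20 and -0.12. The deviations of the 2 sham libraries mirror each other by construction, so these values cannot decide whether the samples are paired. With the replicate block, calls were 31 higher and 7 lower over all admitted cells, 65 and 27 without mesothelial markers, and 28 and 1 for the interaction. Without members bearing stellate markers 34 cells were left, 20 of them with mesothelial markers, and the log2 fold change turned for Thbs1 (-0.49), Saa3 (6.81), Col1a1 (-0.91), Col3a1 (-0.38), Col14a1 (-0.63), Mfap4 (0.39) and Eln (-0.63). It turned without mesothelial and smooth-muscle markers for Col1a1 (-0.43), Col3a1 (-0.58), Dpt (0.064), Eln (-1.51) and Acta2 (-1.42), and there the interaction turned for Lgals1 (-0.68) and Mical2 (-0.75). Dpt was 0.088 in batch 2021.3 alone and 0.090 with batch as a covariate. With 1 library left out, Col1a1 ranged from -0.060 (without pIVCL 1) to 0.49 and the S100a4 interaction from -0.19 to 8.55. Between 145030 and 322864 molecules per library limit what the test can detect.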
